A study of Mus musculus with 4 samples.

Results

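The genes described here are 10 markers of macrophages and other myeloid cells, *C1qa*, *C1qb*, *C1qc*, *Tyrobp*, *Fcer1g*, *Aif1*, *Csf1r*, *Cx3cr1*, *Cd68* and *Ptprc*, among the 23997 genes of an RNA-Seq table of neonatal cochlear progenitors. They were found in the table by gene symbol, and they were chosen by their measured values in the comparison that follows. Their difference between the populations is therefore a description and is given without a test. The comparison was between Lgr5+ progenitors, the EGFP+ cells sorted from P3 cochleae of Lgr5-EGFP-Ires-CreERT2 mice, and Lgr6+ progenitors, the EGFP+ cells of Lgr6-EGFP-Ires-CreERT2 mice at the same age. Both lines are labelled C57BL/6 and neither population received a treatment. The study set the populations side by side to look for genes that may control how these hair cell (HC) progenitors divide and differentiate.

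The labels list 2 samples for each population, and the methods state that the RNA of each population was divided into 3 fractions, so replicates share an extraction. The deposited table combines the replicates and gives 2 values per gene, 1 for either population. The values are FPKM. The fragments of a gene are divided by the length of its transcript and by the number of fragments mapped in the library. This puts genes on 1 scale, although short transcripts still had the higher FPKM in general. No spread between replicates is known for any value given here, so no difference was tested and no error is attached. In these bulk samples a smaller share of cells of a type and less RNA per cell cannot be told apart. The supporting cell marker *Sox2* was at 139.6 FPKM in Lgr5+ cells and at 54.8 FPKM in Lgr6+ cells. *Lgr6* itself had 2.06 and 2.90, and *Lgr5* had 9.65 and 25.0.

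Macrophages reside in the developing and adult cochlea, where they clear debris and take part in the remodelling of the tissue. They carry a recognizable set of transcripts. C1q is the recognition molecule of the classical complement pathway, which tags surfaces and debris for engulfment, and macrophages are its main source in many tissues. Tyrobp and Fcer1g are small membrane adaptors with an immunoreceptor tyrosine-based activation motif (ITAM), through which receptors without a signalling tail activate the kinase Syk. Csf1r, the receptor for Csf1 and Il34, keeps macrophages alive, Cx3cr1 binds the chemokine Cx3cl1, and Ptprc (CD45) is a phosphatase on the surface of nucleated blood cells. Aif1 (Iba1) is an actin-binding protein of macrophages and microglia, and Cd68 is a glycoprotein of their endosomes and lysosomes.

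The promoters are shown because several of these genes were high together in 1 population and near 0 in the other. RefSeq entries on GRCm38.p6 were matched for 7 of the 10 genes. For the 4 of these with a value above 26 FPKM in Lgr6+ cells the 250 bases before the annotated start follow, 5′ to 3′ on the gene's own strand, which is the minus strand for all 4. Capitals mark GAGGAA on either strand (TTCCTC where it lies on the other strand), the core that the myeloid transcription factor PU.1 is known to bind. *C1qb* lies at chr4:136886201-136886450, *C1qc* at chr4:136892915-136893164, *Aif1* at chr17:35176053-35176302 and *Fcer1g* at chr1:171234350-171234599.
C1qb: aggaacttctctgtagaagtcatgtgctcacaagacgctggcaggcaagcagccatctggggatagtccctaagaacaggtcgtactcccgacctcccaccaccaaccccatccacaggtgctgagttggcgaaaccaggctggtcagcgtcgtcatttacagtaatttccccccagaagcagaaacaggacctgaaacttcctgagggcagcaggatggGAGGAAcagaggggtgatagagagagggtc
C1qc: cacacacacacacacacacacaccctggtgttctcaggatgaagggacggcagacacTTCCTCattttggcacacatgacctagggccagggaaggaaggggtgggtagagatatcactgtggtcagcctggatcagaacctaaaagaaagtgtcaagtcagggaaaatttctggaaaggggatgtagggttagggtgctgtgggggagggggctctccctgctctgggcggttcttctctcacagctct
Aif1: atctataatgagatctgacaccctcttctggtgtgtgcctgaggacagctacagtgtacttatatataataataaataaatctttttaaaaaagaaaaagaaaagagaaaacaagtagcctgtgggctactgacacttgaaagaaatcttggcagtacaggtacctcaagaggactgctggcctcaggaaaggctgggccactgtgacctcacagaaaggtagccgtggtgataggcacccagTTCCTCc
Fcer1g: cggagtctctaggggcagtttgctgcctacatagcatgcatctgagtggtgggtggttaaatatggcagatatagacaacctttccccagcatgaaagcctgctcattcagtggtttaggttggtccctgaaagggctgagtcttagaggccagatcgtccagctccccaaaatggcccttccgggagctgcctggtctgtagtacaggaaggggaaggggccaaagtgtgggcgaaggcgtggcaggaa

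The motif began 30 bases before the start in *C1qb*, 193 bases before it in *C1qc* and 7 bases before it in *Aif1*. The windows of *C1qc* and *Aif1* belong to starts that lie inside the annotated RefSeq genes, which reach to 136892936 and 35176083. The *Aif1* motif thus lies within its annotated gene. It was absent from the window of *Fcer1g*. Of the 7 genes with an entry, 5 held a match in at least 1 of their windows, the others being *Cd68* and *Ptprc*. Of all 32851 promoter windows of the same length, 23.3% held the motif. That share counts windows, whereas 5 of 7 counts genes, and *Ptprc* also had a window without a match. The genes were chosen by their values, so nothing is read from these shares. A match is only a run of letters and was not tested as a binding site. Whether PU.1 acts at these genes was not tested.

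All 10 genes had the higher FPKM in Lgr6+ cells. Their summed FPKM was 3.88 in Lgr5+ cells and 264 in Lgr6+ cells, where it made up 0.0420% of the FPKM of all genes. In Lgr5+ cells 6 of the 10 genes were listed at 0, and the remaining 4 lay between 0.215 and 2.41. In Lgr6+ cells 6 of the 10 exceeded an FPKM of 10, whereas *Csf1r*, *Cx3cr1* and *Ptprc* stayed at or under 1.29. Within the set the receptors were thus low in both populations while C1q and the adaptors were near 0 in one and abundant in the other.

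**Figure D1:**
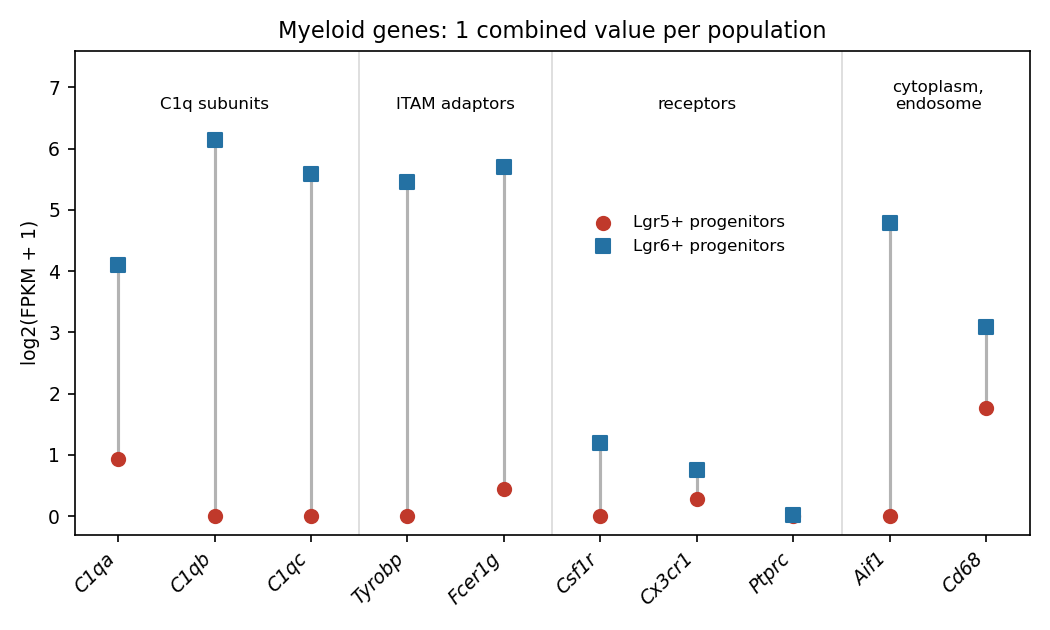
The 10 genes are grouped by role on the horizontal axis, and the vertical axis gives log2(FPKM + 1) of the combined value in Lgr5+ cells (circles) and Lgr6+ cells (squares), with no error bars because there is 1 value per population. C1q subunits, ITAM adaptors and *Aif1* sit above 4 in Lgr6+ cells and below 1 in Lgr5+ cells, and *Ptprc* is at 0 or nearly so in both.

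The C1q genes lie within 18700 bases of chromosome 4. *C1qb*, at 136880145 to 136886177, was listed at 0 in Lgr5+ cells and reached 69.9 FPKM in Lgr6+ cells, the highest value of the set. *C1qc*, at 136889802 to 136892914, was listed at 0 and had 47.1 in Lgr6+ cells. *C1qa*, at 136895916 to 136898844, was at 0.905 in Lgr5+ cells and at 16.2 in Lgr6+ cells, a ratio of 17.9. Transcripts of all 3 subunits were thus found in the Lgr6+ samples. They were unequal, with *C1qb* at 4.31 times and *C1qc* at 2.90 times the level of *C1qa*. The C1q protein holds the subunits in equal numbers, but no protein was measured. Of the nearest genes on either side, *Ephb2*, an ephrin receptor gene next to *C1qb*, was at 6.22 in Lgr5+ cells and at 1.66 in Lgr6+ cells, and *Epha8*, next to *C1qa*, was listed at 0 in both.

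The adaptors were at similar levels to each other. *Tyrobp*, on chromosome 7 from 30413788 to 30417579, went from a listed 0 in Lgr5+ cells to 43.0 FPKM in Lgr6+ cells. *Fcer1g*, on chromosome 1 from 171229572 to 171234349, had 0.354 and 51.1, a ratio of 144. In Lgr6+ cells *Fcer1g* was at 1.19 times the level of *Tyrobp*. *Aif1*, on chromosome 17 from 35170992 to 35176001, went from a listed 0 to 26.6 FPKM. *Cd68*, on chromosome 11 from 69664213 to 69666170, was the only 1 of the 10 genes above an FPKM of 1 in Lgr5+ cells, with 2.41 against 7.52 in Lgr6+ cells, a ratio of 3.12. *Cd68* alone supplied 62.0% of the set's summed FPKM in Lgr5+ cells.

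The receptors gave low values. *Csf1r*, on chromosome 18 from 61105572 to 61131139, went from a listed 0 to 1.29 FPKM in Lgr6+ cells. *Cx3cr1*, on chromosome 9 from 120048683 to 120068296, had 0.215 and 0.681, a ratio of 3.16, but its log2 change fell to 0.04 after quantile normalization. *Ptprc*, on chromosome 1 from 138062859 to 138175305, was listed at 0 and had 0.00814 in Lgr6+ cells, the lowest value of the set. CD45 is a defining marker of leukocytes, and among the 10 genes it was the one nearest to 0.

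How much these low values can carry depends on depth, which the table shows only indirectly. Genes hold whole fragments, so low FPKM values multiplied by transcript length (less 200 bases, in kb) pile up on steps. Over 7990 genes with 1 annotated coding transcript the first step lay at 0.128 in Lgr5+ cells, with 92 genes on it against 3.75 in windows beside it, and at 0.0401 in Lgr6+ cells, with 39 against 2.75. If a step is 1 fragment, the combined Lgr6+ value rests on 3.20 times as many fragments. *Ptprc* then stood at 1.14 steps in Lgr6+ cells and *Fcer1g* at 1.31 steps in Lgr5+ cells, about 1 fragment each. *C1qa* and *Cx3cr1* stood at 5.92 steps each in Lgr5+ cells and *Cd68* at 19.3.

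On the same scale *C1qb* stood at 1547 steps in Lgr6+ cells, *C1qc* at 1177, *Fcer1g* at 603 and *Tyrobp* at 390. An FPKM equal to the Lgr6+ value would have been 484 steps in Lgr5+ cells for *C1qb*, 368 for *C1qc*, 122 for *Tyrobp*, 140 for *Aif1* and 45.4 for *Csf1r*, all of which were listed at 0 there. For *Ptprc* it would have been 0.356 of a step. An equal *Ptprc* level in Lgr5+ cells thus could not have been told from 0 at this depth. Fragments were amplified without molecular identifiers, so steps are not molecules, and step counts of *Aif1*, *Csf1r*, *Cd68* and *Ptprc* depend on which of several transcripts is counted.

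Against all genes, the log2 change of a gene is the difference of its log2(FPKM + 1) values, Lgr6+ minus Lgr5+, where the added 1 understates the change of low genes. Genes that reached 1 FPKM in either population were kept, 13436 in all. *Cx3cr1* and *Ptprc* missed this filter. Of the 10 genes 8 were kept and at least 1.5-fold higher in Lgr6+ cells, while 28.5% of all kept genes were. None was at least 1.5-fold higher in Lgr5+ cells, against 23.3% of all kept genes. Because the genes were chosen by this contrast, nothing is read from these counts. The change ran from 0.01 for *Ptprc* and 0.47 for *Cx3cr1* over 1.20 for *Csf1r*, 1.32 for *Cd68* and 3.18 for *C1qa* to 6.15 for *C1qb*, with a median of 3.98 over the 10 genes and of 0.03 over all kept genes. When each population was scaled to the same FPKM sum, the median over all kept genes moved to 0.30, and 5402 genes were higher in Lgr6+ cells and 2348 in Lgr5+ cells, against 3826 and 3136 on the deposited scale.

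**Figure D2:**
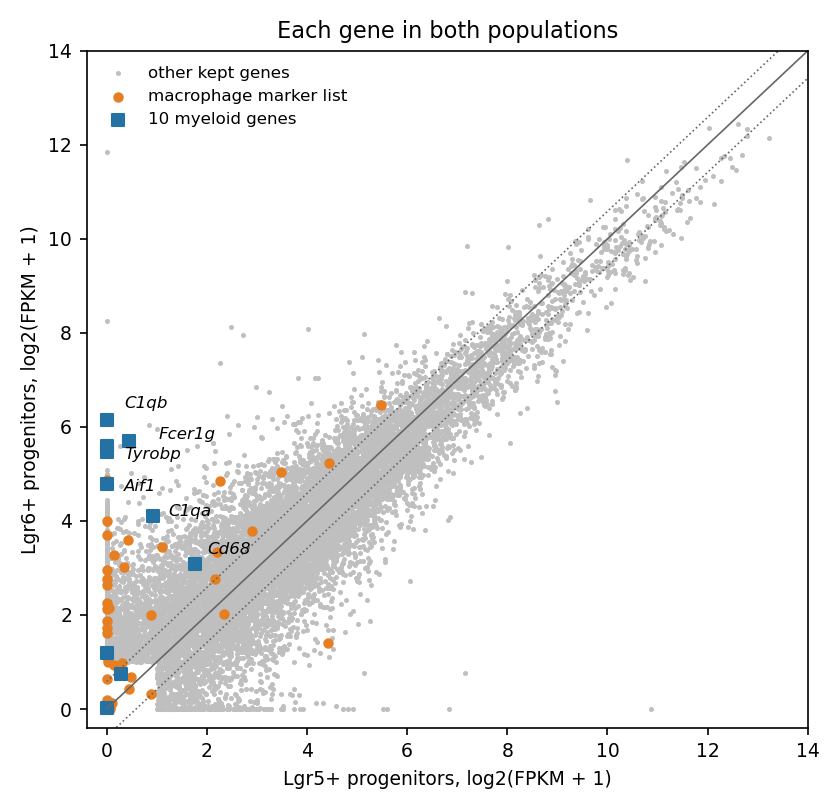
Each point is a gene, with log2(FPKM + 1) in Lgr5+ cells on the horizontal axis and in Lgr6+ cells on the vertical axis. The solid line marks equal values and the dotted lines 1.5-fold, and squares are the 10 genes and orange circles the macrophage markers. All of the 10 genes but *Cd68* and 37 of the 47 markers lie below 1 FPKM in Lgr5+ cells, near the left edge, where *C1qb* is the highest of the labelled genes.

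A value of 0 in 1 population was uncommon among genes this abundant in the other. A listed 0 in Lgr5+ cells with 1 FPKM or more in Lgr6+ cells was found for 4.14% of kept genes. It was found for 5 of the 10 genes, of which 8 were kept. Of the 6696 genes at or above 10 FPKM in Lgr6+ cells, 0.717% were listed at 0 in Lgr5+ cells. Those were 48 genes, and *C1qb*, *C1qc*, *Tyrobp* and *Aif1* were 4 of them. The 10 genes were chosen by this contrast, so nothing is read from their counts here. In the opposite direction 13 genes at or above 10 FPKM in Lgr5+ cells were listed at 0 in Lgr6+ cells.

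Ranked by their Lgr6+ FPKM, *C1qb*, *C1qc* and *Tyrobp* held the top 3 ranks among the 1425 protein-coding genes that were listed at 0 in Lgr5+ cells and above 0 in Lgr6+ cells, and *Aif1* was at rank 7. The ranks between were held by *Sox18* with 31.1, *Grrp1* with 30.3 and *Ccl12* with 28.1. Sox18 is a transcription factor of endothelial cells, and Ccl12 is a chemokine that attracts monocytes. Of the 20 highest genes of any kind at 0 in Lgr5+ cells, 9 were entries of small RNAs. There *Mir1843b* with 3667 FPKM and *Snord92* with 303 came first, and *C1qb*, *C1qc* and *Tyrobp* held ranks 3, 4 and 5. Among the protein-coding genes *Csf1r* came only at rank 353 and *Ptprc* at 1401. All genes of the set were chosen by this contrast, so nothing is read from their ranks.

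The rest of the complement pathway gave mixed values. Of 25 complement genes 8 were kept, of which 4 were at least 1.5-fold higher in Lgr6+ cells and 3 in Lgr5+ cells, and the median change over all 25 was 0. These counts were 2 and 3 after quantile normalization and 6 and 3 at the same FPKM sum. Among the enzymes and components that act after C1q, *C1ra*, a protease of the C1 complex, had 0 and 1.23 FPKM in Lgr5+ and Lgr6+ cells, while *C1s1* and *C3* were listed at 0 in both. *C4b* had 0 and 0.101, and *C2* had 0.0527 and 0.670. Of 5 genes of the alternative and lectin pathways 1 was kept, *Cfp*, with 11.1 and 5.13. The inhibitors were mixed. *Clu*, a secreted inhibitor of the terminal complex that many epithelia make, was abundant at 1513 and 743, *Cd59a* had 7.09 and 2.56, and *Serping1*, the C1 inhibitor, had 0.548 and 1.57. The complement receptor genes *Itgb2*, *Itgax* and *Vsig4* were listed at 0 in both populations. *C3ar1* had 0.0185 and 0.726, *C5ar1* had 0 and 0.467, and *Itgam* went the other way with 0.259 and 0.173. The 1 kept gene among 7 complement receptors was *Cd93*, a C-type lectin-like receptor that endothelial cells also carry, with 0.271 and 5.91.

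Proteins that share the C1q domain but are not part of complement were looked at because of their name, after the values were seen. Of 12 genes of the C1ql and C1qtnf families 5 were kept, with 2 higher in Lgr6+ cells and 3 higher in Lgr5+ cells by 1.5-fold. The most abundant, *C1qtnf4*, had 147 and 93.1 FPKM in Lgr5+ and Lgr6+ cells. *C1ql1* had 0 and 3.98.

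Among the receptors that pair with Tyrobp or Fcer1g, 1 of 13 was kept. It was *Fcgr3*, a low-affinity IgG receptor that needs Fcer1g at the surface, with 0 and 16.4 FPKM in Lgr5+ and Lgr6+ cells. *Trem2*, a lipid receptor of microglia that pairs with Tyrobp, was listed at 0 in both populations, as were 6 others of the 13. The kinase gene *Syk* had 0.106 and 0.358, and *Btk* and *Lcp2*, which encode a kinase and a scaffold of the same cascade, were listed at 0 in both. *Plcg2* had 0.273 and 2.19 and *Vav1* had 0 and 1.11, whereas *Blnk* went the other way with 10.04 and 1.84. The abundant ITAM adaptors thus stood beside low or absent values of most of their partners. Over all 29 genes of this list the median change was 0, with 3 at least 1.5-fold higher in each population, with 2 and 4 after quantile normalization and with 5 and 3 at the same FPKM sum.

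Both ligands of Csf1r were low in Lgr5+ cells. *Il34* was listed at 0 there and reached 5.53 FPKM in Lgr6+ cells, while *Csf1* had 0 and 0.0261. *Cx3cl1*, the ligand of Cx3cr1, had 3.19 and 0.659. *Csf2ra*, a subunit of the GM-CSF receptor, had 15.7 and 22.4. Of 8 myeloid transcription factors only *Spi1*, the gene that encodes PU.1, was at least 1.5-fold higher in Lgr6+ cells. It was listed at 0 in Lgr5+ cells and had 12.1 FPKM in Lgr6+ cells. *Runx1* had 1.05 and 0.00642, *Irf8* had 0.843 and 0.889, and *Ikzf1* and *Irf5* were listed at 0 in both. *Cebpb* was abundant in both populations with 36.1 and 34.6.

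A list of 47 other macrophage marker genes was compared in the same way. Of these 27 were kept, 25 of them at least 1.5-fold higher in Lgr6+ cells and 1 in Lgr5+ cells. Over all kept genes these shares were 28.5% and 23.3%. Of the 27 kept markers 17 were under 1 FPKM in Lgr5+ cells. They passed the filter only through their Lgr6+ value, which fixed their direction. The list was chosen with earlier results of these data known, so nothing is read from these counts. The median change over all 47 was 0.89, or 0.77 to 1.16 under the other scalings. The summed FPKM of the list was 121 in Lgr5+ cells and 352 in Lgr6+ cells. *Pf4* had 3.81 and 27.8, *Ms4a7* had 0 and 14.9, *Cd52* had 0 and 11.9, and *Lyz2*, the myeloid lysozyme, had 0.340 and 11.0. *Ctss*, a protease of antigen-presenting cells, had 0.101 and 8.63, and *Adgre1*, which encodes F4/80, had 0 and 2.08.

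Part of the list was not restricted to Lgr6+ cells. In Lgr5+ cells 10 of the 27 kept genes reached 1 FPKM, among them *Olfml3* with 43.7 against 87.2, *Laptm5* with 20.7 against 36.6 and *Sall1* with 10.1 against 32.0. *Cd83* was the 1 gene at least 1.5-fold lower in Lgr6+ cells, at 1.65 against 20.3. *Msr1*, *Clec7a*, *P2ry13*, *Slc2a5*, *Cxcl2*, *Tnf* and *Il1b* were listed at 0 in both populations. *Cd163*, a scavenger receptor, had 0.0963 in Lgr6+ cells and *Lyve1* was listed at 0 there.

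Genes of MHC class II, which activated macrophages and dendritic cells use to present antigen, ran the other way. Of 7 genes 5 were kept and all 5 were at least 1.5-fold higher in Lgr5+ cells, with *Cd74*, the invariant chain, at 6.59 against 0 and *H2-DMa* at 47.6 against 21.6. *H2-Aa* was listed at 0 in both. Widely expressed lysosomal genes were abundant in both populations. Of 12 such genes 2 were at least 1.5-fold higher in Lgr6+ cells and 3 in Lgr5+ cells, a split that turned to 2 and 1 after quantile normalization and to 4 and 1 at the same FPKM sum. Their summed FPKM was 705 and 667.

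Markers of other cells moved between the populations as well. Endothelial markers were at least 1.5-fold higher in Lgr6+ cells for 9 of 10 genes, with a summed FPKM of 34.5 and 179 and no marker at 0 in Lgr6+ cells. The same held for 6 of 10 mesenchyme and fibrocyte markers, with sums of 329 and 879, and for 3 of 6 Schwann cell markers, with 74.0 and 262. In the first 2 of these lists 1 marker each was at least 1.5-fold higher in Lgr5+ cells. These were the endothelial *Tie1*, with 2.09 against 0.999 in Lgr6+ cells, and the mesenchymal *Lum*, with 179 against 101. *Dcn*, also mesenchymal, had 91.8 and 74.9. The highest mesenchyme values in Lgr6+ cells were those of *Igfbp7* with 277 and *Otos* with 248. The HC markers *Myo7a*, *Pou4f3*, *Atoh1*, *Gfi1*, *Otof* and *Pcp4* summed to 1479 and 3635. Of these 6, 5 were at least 1.5-fold higher in Lgr6+ cells, and *Atoh1* had 30.9 and 36.4. None of 10 supporting cell markers was at least 1.5-fold higher in Lgr6+ cells and 4 were at least 1.5-fold higher in Lgr5+ cells. Their sums were 4319 and 3815. Of 9 erythroid and megakaryocyte markers 4 were at least 1.5-fold higher in Lgr5+ cells, all of them hemoglobin genes, and they made up most of the list's sum of 630 in Lgr5+ cells and 109 in Lgr6+ cells. *Alas2*, an enzyme of heme synthesis, had 4.36 and 6.64, the megakaryocyte gene *Itga2b* had 0.584 and 1.07, and *Ppbp* and *Gp9* were listed at 0 in both. The part of these shifts in the values of the 10 genes was not tested.

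Most markers of other leukocytes were listed at 0. Of 9 neutrophil genes that the table holds, 7 were listed at 0 in both populations, *S100a8*, *S100a9* and *Mpo* included, and the remaining *Camp* and *Mmp9* summed to 10.4 and 5.70. Of 12 T and NK cell genes 10 were listed at 0 in both, among them *Cd3e* and *Nkg7*, whereas *Lck*, a kinase of T cell receptor signalling and the only kept gene of that list, had 19.5 FPKM in Lgr5+ cells and 7.61 in Lgr6+ cells. Of 9 mast cell and basophil genes 6 were listed at 0 in both, *Cpa3* and *Ms4a2* included. The 2 kept genes of that list differed in direction, with *Kit*, a receptor that melanocytes also carry, at 6.07 and 15.3 and *Hdc*, the histamine-forming enzyme, at 2.53 and 0.298. Of 6 B cell genes *Cd79b* had 0 and 8.90 and *Cd79a* had 0 and 2.39, while *Ms4a1* and *Pax5* were listed at 0 in both populations.

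**Figure D3:**
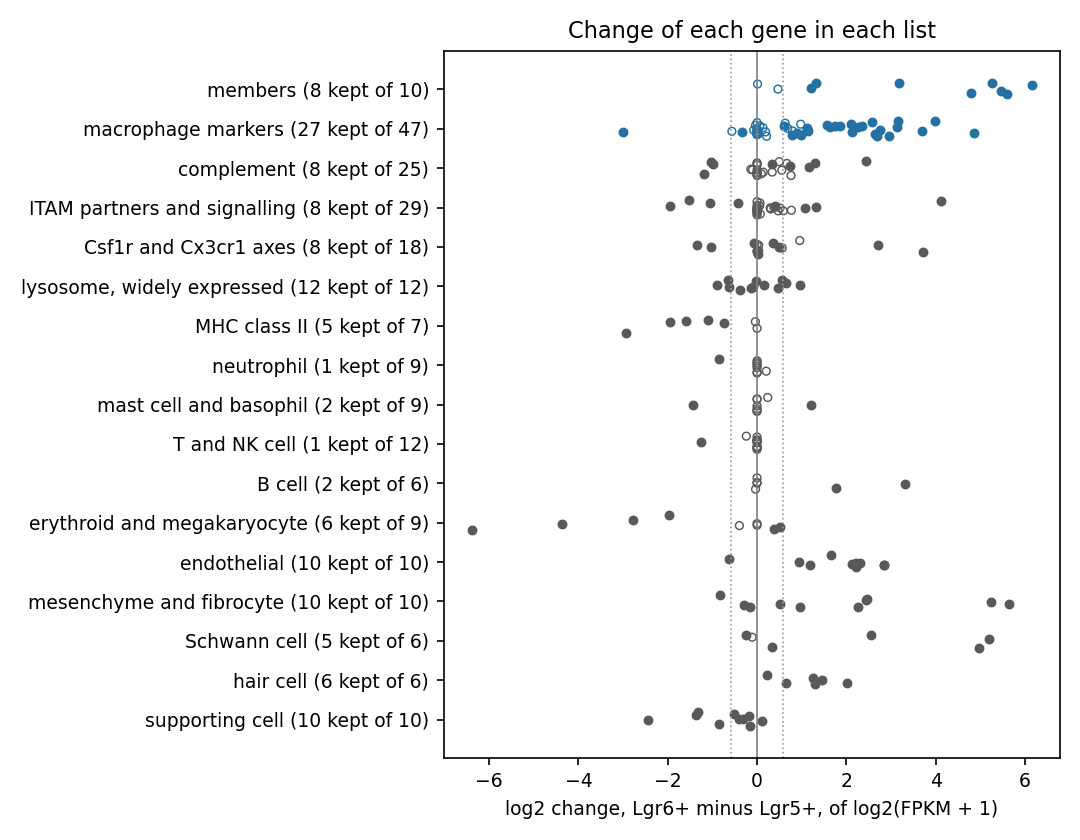
Each point is a gene of the table in 1 of 17 lists, placed by its log2 change of log2(FPKM + 1), Lgr6+ minus Lgr5+, on the horizontal axis and spread at random within its row. Filled points reached 1 FPKM in either population, open points did not, and the dotted lines mark 1.5-fold. The 10 genes and the macrophage markers lie mostly to the right, as do the endothelial, mesenchyme and fibrocyte, Schwann cell and HC markers. MHC class II genes lie to the left and most leukocyte genes of other kinds sit at 0.

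The split within the set between abundant and scarce genes ran along transcript length. The 7 genes at or above 7.52 FPKM in Lgr6+ cells had a longest annotated transcript of 564 to 1230 bases, and the 3 receptor genes with at most 1.29 had 3729 to 5814 bases. Macrophage markers under 1500 bases had a median FPKM of 5.77 in Lgr6+ cells over 14 genes, those of 1500 to under 3500 bases 0.979 over 25 genes, and those of 3500 bases or more 0.627 over 8 genes. Over all kept genes the medians in Lgr6+ cells were 38.7, 11.2 and 7.33 in these classes, so short transcripts had the higher FPKM in general. The change between the populations did not follow length over all kept genes, with medians of -0.01, 0.03 and 0.03. A 0 in Lgr5+ cells was more frequent for short transcripts, at 8.35%, 3.77% and 1.495% of kept genes. The part of length in the low *Ptprc*, *Csf1r* and *Cx3cr1* values was not tested.

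**Figure D4:**
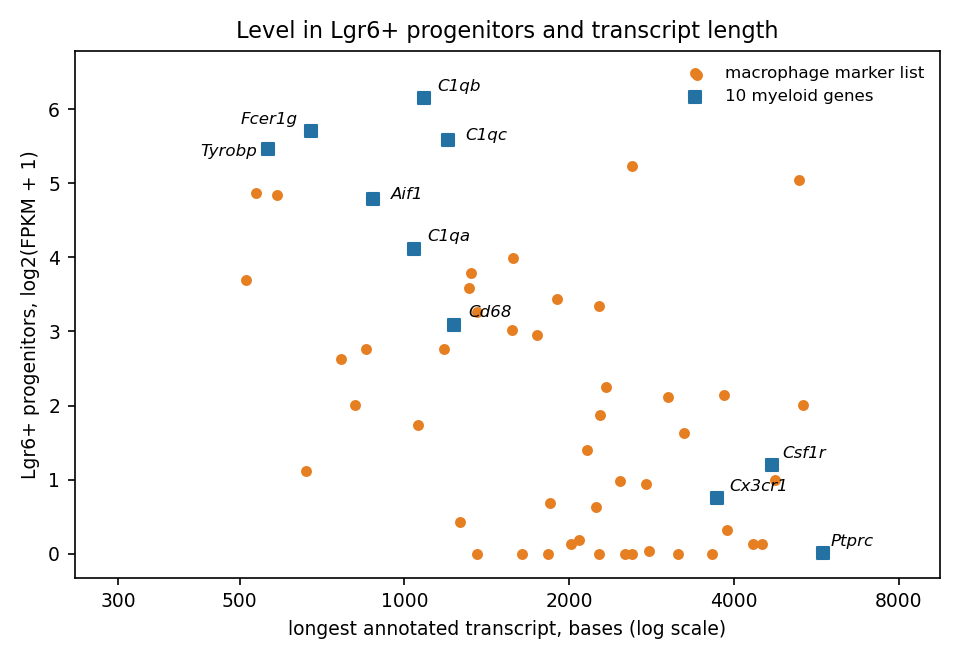
The horizontal axis gives the longest annotated transcript in bases on a log scale and the vertical axis log2(FPKM + 1) in Lgr6+ cells, for the 10 genes (squares) and 47 macrophage markers (circles). The 7 short genes of the set lie above 3 and the 3 receptor genes lie below 1.3 at the right.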

How the data were processed

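The paired-end reads were trimmed (Trimmomatic), mapped (TopHat) and turned into FPKM (Cufflinks, RefGene models) by the authors, with versions not given in the sources used here. The FPKM values that the authors deposited combine the replicates of a population. The labels name mm10 and the paper mm9, and the deposited intervals overlapped the RefSeq gene in GRCm38 for 98.8% of 22500 shared symbols, so positions are read as GRCm38. The table also holds the authors' own fold changes, *p*-values and *q*-values, which were not used. The planned limma fit was not run, since no column holds a single sample. Genes were compared on log2(FPKM + 1), with a minimum FPKM of 1 in at least 1 population and a 1.5-fold threshold. Transcript lengths came from GENCODE vM1 by symbol. The 10 genes and the lists were chosen with earlier results of these data known. All 10 genes were named. From marker lists the counts, sums and examples were given, mainly those with the highest Lgr6+ FPKM, and other examples, the lowest and absent markers included, were chosen after their values were seen. From genes at 0 in Lgr5+ progenitors the 20 with the highest Lgr6+ FPKM were considered. *Ly6g* did not match the table. Scripts in Python 3.11.15 with pandas 2.3.3, numpy 2.4.6 and matplotlib 3.10.9 were tested on simulated data. The paper gives reads per sample and the mapped share only as ranges over all samples. The depth of each single library is therefore unknown, and no counting intervals are given.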

Additional observations from a re-analysis of the deposited data

How the results depend on the processing

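Results were recomputed with a pseudocount of 0.1, without the filter, with a minimum FPKM of 5 in either or of 1 in both populations, with quantile normalization, the same upper quartile, the same FPKM sum and a 2-fold threshold. All 10 genes kept a positive change under the pseudocount and the 3 scalings. For the 6 genes listed at 0 in Lgr5+ progenitors the sign could not change, since these settings leave a 0 at the bottom. The median change of the 10 genes was 5.42 with a pseudocount of 0.1, 3.88 after quantile normalization, 3.98 at the same upper quartile and 4.52 at the same sum. The number of the 10 genes higher in Lgr6+ progenitors by the threshold stayed between 7 and 9 except when both populations had to reach 1 FPKM. That left 1, *Cd68*, and 8 of the macrophage markers, since that filter removes genes near 0 in Lgr5+ progenitors. The share of all genes of a setting that were higher moved as well. It was 17.4% without the filter, 21.4% with at least 1 FPKM in both, 24.7% after quantile normalization and 38.7% at the same FPKM sum, which gave the 9. Of all genes 2415 were higher in Lgr6+ progenitors at a minimum FPKM of 5, 2392 with at least 1 in both and 2443 at 2-fold. Taking 150 or 250 bases off the transcripts, chosen after seeing the data, gave step ratios of 3.21 and 3.19. Leaving out replicates was not run because the values are combined. No paired analysis was possible because the table holds no values of single samples.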

Other observations

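Among the 20 protein-coding genes with the highest Lgr6+ FPKM that were listed at 0 in Lgr5+ cells, several are in none of the lists, and 2 are named here after their values were seen. *Apoc1*, an apolipoprotein gene that macrophages also express, went from a listed 0 in Lgr5+ cells to 19.6 FPKM in Lgr6+ cells. *Ly6c1*, a surface antigen gene of endothelial cells and some leukocytes, was listed at 0 and had 18.2. Among the inflammatory chemokines of the macrophage list, *Ccl3* had 0 and 5.21 and *Ccl4* had 0 and 1.17, while *Ccl2* had 4.06 and 3.04. These are single combined values and were not tested.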
